A study of Rattus norvegicus with 6 samples.

Results

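The genes described here are 10 growth cone and growth-associated genes, taken out of 43350 gene rows in an RNA-seq expression table of rat dorsal root ganglia (DRG) by matching gene symbols. They are *Gap43*, *Basp1* and *Marcks*, the stathmins *Stmn1*, *Stmn2*, *Stmn3* and *Stmn4*, and *Flrt3*, *Dpysl3* and *Csrp3*. Where a symbol had several rows, a protein-coding row was taken first and then the row with the largest summed count. All 10 were found, and all 10 had the mean of at least 0.5 FPKM (the fragment count scaled to transcript length and library size) that was required for testing. *Csrp3* reached that mean only through the injured ganglia, so its entry into the test already depended on its being high there.

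The study compared chronic constriction injury (CCI), in which loose ligatures are tied around the sciatic nerve, with sham surgery, in which the nerve is exposed and not ligated. The 6 libraries came from male Sprague-Dawley rats, 6 to 8 weeks old when obtained, of which 3 had CCI and 3 had sham surgery, the latter given in the labels as no treatment. Lumbar DRG of the operated side, which hold the cell bodies of the sensory neurons of that nerve, were taken on day 11 after surgery. The study's methods describe 1 rat per sample, chosen at random from animals kept for their behavioural performance after surgery, whereas the sample protocol speaks of a pooled sample. The labels name no allele or transgene, and the samples include no unoperated rats. RNA of whole ganglia was used and depleted of ribosomal RNA. The values thus cover neurons, glia, immune cells and fibroblasts together. In such bulk samples, fewer cells of a type and less RNA per cell cannot be told apart.

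When a peripheral axon is damaged, the neuron can extend a new growth cone, a motile tip whose actin rim and microtubule core are rebuilt continuously. GAP-43, BASP1 and MARCKS are acylated proteins under the plasma membrane that are regulated by protein kinase C and tie membrane lipids to actin. Stathmins bind tubulin dimers and regulate microtubule assembly, DPYSL3 (CRMP4) is a collapsin response mediator protein of the growth cone, FLRT3 is a transmembrane adhesion protein with leucine-rich repeats, and CSRP3 (muscle LIM protein) is an actin-binding LIM protein best known from striated muscle. GAP-43 is a classical marker of regenerating sensory neurons.

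The 6 libraries held 75423546 to 87615743 counts, and their scaling factors lay between 0.9884 and 1.011, so depth differed little. Neuronal RNA was present in every library, and the 12 pan-neuronal markers summed to 6660 to 6817 CPM (a count scaled by library size but not by gene length) in CCI and 6021 to 6984 CPM in sham, with none past the limits. All 10 injury-state markers were higher in the libraries labelled CCI at the limits given with the results, beside 2.57% of all rows tested. Their sums were 689, 465 and 407 CPM in CCI 1, 2 and 3 and 142, 150 and 160 CPM in sham 1, 2 and 3. These markers were chosen with earlier results of these data known, so they are no independent check of the labels. Macrophage markers summed to 99.8 to 142 CPM in CCI and 77.1 to 98.9 CPM in sham. Of these, 4 of 9 (*Cd68*, *Csf1r*, *Cx3cr1* and *Tyrobp*) were higher at the same limits, beside 2.57% of all rows. All 7 large-neuron markers tested had negative log2 fold changes (median -0.29), whereas 51.1% of all rows had positive ones. These 7 markers summed to 7821 to 9597 CPM in CCI and 11509.8 to 12787 CPM in sham. Of them *Pvalb* was lower at these limits, 1 of 7 beside 1.26% of all rows, while *Nefl*, at -0.57, passed an adjusted p under 0.05 (0.0457, edgeR). The 14 skeletal muscle markers found summed to 679.6 CPM in sham 1, 159 CPM in each of the other sham libraries and 181 to 187 CPM in CCI. Most of the sum outside sham 1 was *Myh7*, whose row is joined with another gene, and without it the sums were 456, 13.8 and 58.6 CPM in sham 1, 2 and 3 and 10.8 to 28.7 CPM in CCI. Of 13 muscle markers tested, *Myh7* included, 6 were lower in CCI at these limits, beside 1.26% of all rows. Among them *Tnni2*, *Ckm* and *Actn3* averaged under 0.5 FPKM in CCI, so they entered the test only through sham. The groups overlapped for *Acta1*, at 4.21 CPM in sham 2 and 4.22 to 7.28 CPM in CCI. They also overlapped for *Ckm*, at 0.845 CPM in sham 2 and 0.197 to 1.23 CPM in CCI. This count is therefore no test of muscle RNA between the groups. The part of these cell type markers in the growth-associated differences was not tested.

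To show the DNA just before the transcription start of these genes, promoter sequence of RefSeq on GRCr8 was read for 6 of the 10 genes, namely *Basp1*, *Marcks*, *Stmn1*, *Stmn3*, *Flrt3* and *Dpysl3*, and *Dpysl3* had a window at each of 2 start sites. Not matched were *Gap43*, *Stmn2*, *Stmn4* and *Csrp3*. The sequences below are those of *Flrt3*, the gene with the smallest p-value among the 10, *Stmn3*, the gene with the smallest difference, and *Basp1*, which carries the most CG pairs. Each is on the minus strand and runs 5′ to 3′ toward the start site, in lower case with every CG pair in capitals. *Flrt3* is chr3:148461459-148461655, *Stmn3* is chr3:188802495-188802744 and *Basp1* is chr2:77594298-77594547.
Flrt3: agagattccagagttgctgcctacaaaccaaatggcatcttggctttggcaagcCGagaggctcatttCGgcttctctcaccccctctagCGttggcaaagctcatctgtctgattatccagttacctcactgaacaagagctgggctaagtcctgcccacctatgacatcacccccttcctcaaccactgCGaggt
Stmn3: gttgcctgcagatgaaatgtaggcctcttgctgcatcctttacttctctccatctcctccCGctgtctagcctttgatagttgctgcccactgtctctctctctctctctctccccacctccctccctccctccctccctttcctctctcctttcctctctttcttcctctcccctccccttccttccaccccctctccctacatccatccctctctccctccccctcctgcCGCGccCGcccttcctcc
Basp1: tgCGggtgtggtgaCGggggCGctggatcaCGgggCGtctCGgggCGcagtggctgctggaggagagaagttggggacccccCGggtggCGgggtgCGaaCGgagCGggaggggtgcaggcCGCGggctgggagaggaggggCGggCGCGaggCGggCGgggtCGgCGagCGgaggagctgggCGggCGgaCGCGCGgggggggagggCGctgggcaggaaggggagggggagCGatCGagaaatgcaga
The *Flrt3* stretch is 197 bases because the rest of its window lies inside the gene, and it holds 4 CG pairs. *Stmn3* also holds 4 CG pairs in 250 bases, most of them near the start site beside long runs of c and t, whereas *Basp1* holds 30. Over the 250 bases before the start, GC content was 76.8% in *Basp1*, 55.6% in *Marcks*, 67.6% in *Stmn1*, 59.2% in *Stmn3*, 52% in *Flrt3* and 67.2% and 61.2% in the *Dpysl3* windows, and each exceeded the median of 51.2% over all windows. In the *Stmn1* window and the *Dpysl3* window with 61.2%, these bases lie wholly inside the annotated gene, before an internal start site. The AP-1 motif TGANTCA and the CRE motif TGACGTCA, each its own reverse complement and so read on both strands, occurred in 0 of the 7 windows. Among 33465 windows of 250 bases, 6.34% held the AP-1 letters and 1.59% held the CRE letters. These counts say only that the letters are not in these windows.

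In the injured ganglia, *Gap43*, *Stmn4*, *Flrt3* and *Csrp3* were higher at the limits used in the study, an unadjusted p under 0.05 with an absolute log2 fold change of at least 0.58. That is 4 of 10 genes, beside 2.57% of all 26663 rows tested, and 0 of 10 were lower, beside 1.26%. Without a limit on the fold change, 8 of 10 were higher at p under 0.05, beside 5.57% of all rows, which adds *Basp1*, *Stmn1*, *Stmn2* and *Dpysl3* with small differences. In 9 of 10 genes every CCI library lay above every sham library, beside 8.63% of all rows. Only *Flrt3* passed an adjusted p under 0.05 (quasi-likelihood test of edgeR, Benjamini-Hochberg adjustment over all rows), which is 1 of 10 beside 0.0638% of all rows called higher in that way. The median log2 fold change was 0.36 over the 10 genes and 0.01 over all rows, and the sign was positive in 10 of 10 genes and in 51.1% of all rows. The genes were chosen with earlier results of these data known, and *Csrp3* entered the test only through CCI. These counts therefore describe the 10 genes and are no test of them as a set.

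**Figure D1:**
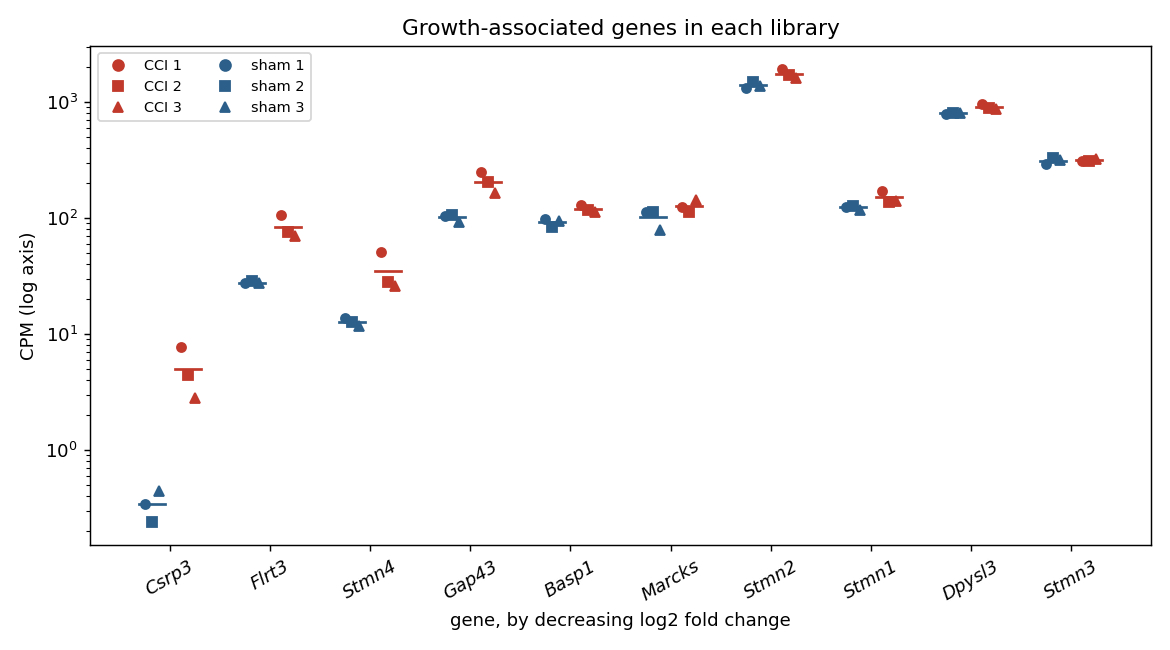
CPM of each gene on a log axis in the 3 sham libraries (blue) and the 3 CCI libraries (red), with marker shapes for replicates 1, 2 and 3 and horizontal bars for group means. *Csrp3*, *Flrt3*, *Stmn4* and *Gap43*, at the left, show the widest gaps between groups, and *Stmn3*, at the right, is the gene whose groups overlap.

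Among the membrane-associated kinase substrates, *Gap43* (chromosome 11, 58624198 to 58717914, plus strand, coordinates as in the deposited table) had 248, 204 and 164 CPM in CCI 1, 2 and 3 and 104, 106 and 93.1 CPM in sham 1, 2 and 3. Every injured ganglion sample thus held more *Gap43* RNA than any sham sample, and the CCI values were spread more widely than the sham values, at 205 ± 42.1 CPM against 101.3 ± 7.17 CPM (SD, n = 3 each). The difference was 2.02-fold, a log2 fold change of 1.02 (SE 0.15, 95% interval 0.66 to 1.38), with an unadjusted p of 0.000362 and an adjusted p of 0.0974 by the edgeR quasi-likelihood fit after Benjamini-Hochberg adjustment. *Gap43* therefore passed the limits of the study and not the adjusted limit, which it passed without CCI 3 (adjusted p 0.0482).

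*Basp1* (chromosome 2, 77585679 to 77632655, minus strand), which encodes a brain acid-soluble protein related to GAP-43 in function, had 129, 118 and 112 CPM in CCI 1, 2 and 3 and 98.4, 83.5 and 93.5 CPM in sham 1, 2 and 3. The groups did not overlap, but the log2 fold change of 0.39 (SE 0.08) was below 0.58, and the adjusted p was 0.195. *Marcks* (chromosome 20, 42966140 to 42971838, plus strand), the myristoylated kinase C substrate that many cell types express, had 124, 113 and 143 CPM in CCI 1, 2 and 3 and 112, 112 and 79.3 CPM in sham 1, 2 and 3. The lowest CCI value and the highest sham value were close together, and sham 3 lay well under the other sham libraries. The log2 fold change of *Marcks* was 0.33 (95% interval -0.05 to 0.70), p was 0.0759 and adjusted p 0.534, and the value was 0.18 without sham 3. The interval runs from a small decrease to a rise above the fold limit, so these libraries neither show a change of *Marcks* nor limit it to a small one.

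Of these genes *Gap43* had the largest fold change. The ratio of *Gap43* to *Basp1* FPKM, which is per length, was 2.32, 2.09 and 1.77 in CCI 1, 2 and 3 and 1.29, 1.55 and 1.21 in sham 1, 2 and 3, with no overlap between groups. The *Gap43* to *Marcks* ratio was 5.63, 5.07 and 3.23 in CCI and 2.63, 2.68 and 3.31 in sham, and there the groups overlapped because CCI 3 lay under sham 3. The *Basp1* to *Marcks* ratio overlapped as well, at 1.82 to 2.43 in CCI and 1.74 to 2.74 in sham. No test was run on ratios, and an exact permutation test of 3 libraries against 3 cannot give a two-sided p under 0.1.

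Of the stathmins, *Stmn4* (chromosome 15, 43007908 to 43025852, plus strand), also known as RB3, had the largest fold change. It had 50.6, 28.4 and 25.8 CPM in CCI 1, 2 and 3 and 13.9, 12.8 and 11.7 CPM in sham 1, 2 and 3. Its sham values were tight, and CCI 1 lay far above the other CCI libraries. *Stmn4* was 2.73-fold higher in CCI (log2 fold change 1.45, SE 0.26, 95% interval 0.82 to 2.08), with p of 0.00115 and an adjusted p of 0.136. Without CCI 1 the log2 fold change was 1.08, and the adjusted p was then 0.0392.

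*Stmn2* (chromosome 2, 95424251 to 95472115, minus strand), the neuron-specific stathmin also known as SCG10, was the most abundant of the 10 genes. It had 1940.3, 1714 and 1620 CPM in CCI 1, 2 and 3 and 1332 CPM in sham 1, 1488.5 CPM in sham 2 and 1386 CPM in sham 3. The groups were apart, but the fold change was modest, at a log2 value of 0.33 (SE 0.08), with p of 0.00667 and an adjusted p of 0.253. A second row named *Stmn2* lies on the opposite strand inside the gene (chromosome 2, 95425632 to 95429771) and held 0.877% as many counts. It had 1416, 1409 and 1097 counts in the CCI libraries and 1089, 766 and 961 in the sham libraries, a log2 fold change of 0.55 (SE 0.13) with an adjusted p of 0.229. Whether strand was used in counting is not given in the sources used here, so reads of these overlapping rows cannot be told apart.

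*Stmn1* (chromosome 5, 152680242 to 152686806, plus strand), the widely expressed founding stathmin, shares its row with a second name, AC099104. The row had 173, 137 and 141 CPM in CCI 1, 2 and 3 and 124, 128 and 118 CPM in sham 1, 2 and 3. CCI 1 was again the highest, and the log2 fold change of 0.28 (SE 0.10, p 0.0235, adjusted p 0.369) was 0.17 without it. *Stmn3* (chromosome 3, 176808017 to 176816162, minus strand), also known as SCLIP and restricted to neurons, had 312, 313 and 321 CPM in CCI 1, 2 and 3 and 290.0, 327 and 316 CPM in sham 1, 2 and 3. Here every CCI value fell between the lowest and the highest sham value. The log2 fold change of *Stmn3* was 0.02 (SE 0.06) with p of 0.751, and its 95% interval of -0.12 to 0.16 lies wholly under the interval of *Stmn4*. The sign turned to -0.03 without sham 1.

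Set against *Stmn3* in the same library, the other stathmins stood higher in CCI. The ratio of *Stmn4* to *Stmn3* FPKM was 0.196, 0.109 and 0.0970 in CCI 1, 2 and 3 and 0.0577, 0.0471 and 0.0447 in sham 1, 2 and 3. The *Stmn2* to *Stmn3* ratio was 5.68, 5.00 and 4.62 in CCI and 4.19, 4.17 and 4.003 in sham. The *Stmn1* to *Stmn3* ratio was 0.517, 0.410 and 0.412 in CCI and 0.401, 0.367 and 0.349 in sham. In none of these ratios did the groups overlap, whereas the *Stmn2* to *Stmn1* ratio did, at 10.98 to 12.2 in CCI and 10.5 to 11.5 in sham. In both groups *Stmn2* was the largest part of the family, at 75.4 to 76.8% of the summed stathmin FPKM in CCI and 74.2 to 74.7% in sham. *Stmn4* made up 1.58 to 2.65% in CCI and 0.828 to 1.02% in sham, and *Stmn3* made up 13.5 to 16.3% in CCI and 17.7 to 18.5% in sham.

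**Figure D2:**
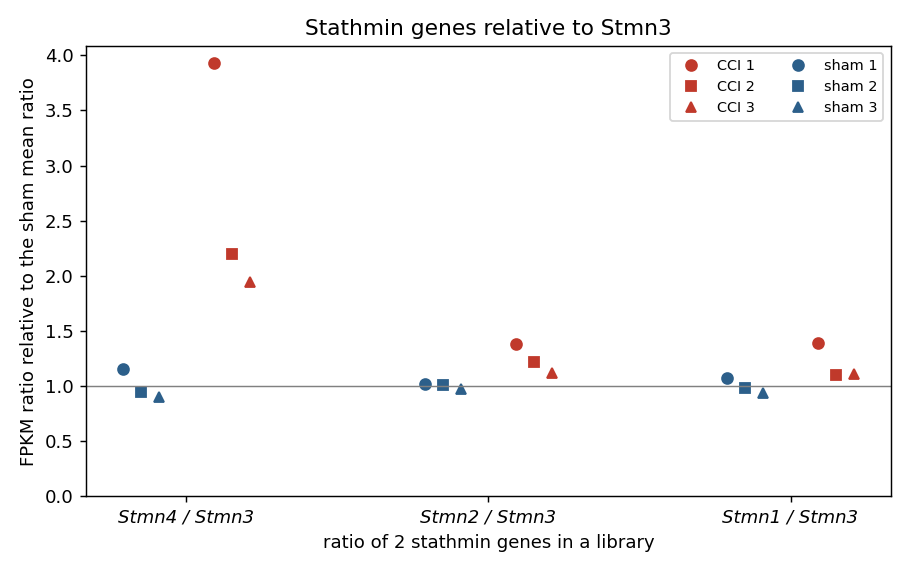
FPKM of *Stmn4*, *Stmn2* and *Stmn1* divided by that of *Stmn3* in the same library, each shown relative to the mean ratio of the sham libraries (line at 1), with sham in blue, CCI in red and marker shapes for replicates. All CCI points lie above all sham points in each ratio, by the widest margin for *Stmn4*, where CCI 1 is highest.

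*Flrt3* (chromosome 3, 134682376 to 134697183, minus strand), whose protein binds latrophilins, UNC5 receptors and ROBO1 and acts in axon guidance and cell adhesion, gave the smallest p-value of the 10 genes. It had 106, 75.2 and 69.8 CPM in CCI 1, 2 and 3 and 27.5, 28.4 and 27.5 CPM in sham 1, 2 and 3. The sham values were nearly the same in the 3 libraries, with an SD of 0.510 CPM around 27.8 CPM, and the lowest CCI value was far above them. *Flrt3* was 3.00-fold higher in CCI (log2 fold change 1.59, SE 0.16, 95% interval 1.20 to 1.97), with p of 3.5e-05 and an adjusted p of 0.0444, from the same fit across all rows. Over the alternative analyses its adjusted p ranged from 6.65e-19 to 0.194, and it missed the adjusted limit without CCI 2 and without any 1 of the sham libraries. An unnamed locus on the opposite strand overlaps *Flrt3* and held 22.2% as many counts, and its log2 fold change was -0.36 (p 0.0402, adjusted p 0.434), the other direction. As for *Stmn2*, the use of strand in counting is not given, so reads where these rows overlap cannot be told apart.

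*Dpysl3* (chromosome 18, 37712865 to 37819097, minus strand) had 970 CPM in CCI 1, 881 in CCI 2 and 868 in CCI 3, against 782, 799 and 810 CPM in sham 1, 2 and 3. The groups did not overlap although the difference was slight. Its log2 fold change was 0.19 (SE 0.06, 95% interval 0.04 to 0.33), with p of 0.0185 and an adjusted p of 0.347. The upper bound lies under the fold limit of 0.58.

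*Csrp3* (chromosome 1, 104147206 to 104166367, minus strand) had the largest fold change and the lowest level. Its counts were 628, 355 and 212 in CCI 1, 2 and 3 and 30, 19 and 37 in sham 1, 2 and 3. These correspond to 4.98 ± 2.52 CPM in CCI and 0.343 ± 0.104 CPM in sham (SD, n = 3 each), so the CCI libraries differed from each other by more than the whole sham level. *Csrp3* was 14.4-fold higher in CCI (log2 fold change 3.85, SE 0.46, 95% interval 2.74 to 4.96), with p of 0.000106 and an adjusted p of 0.0714, which was 0.0480 without CCI 3. On the log2(FPKM + 1) scale, which shrinks differences of low genes, the value was 1.81. As CSRP3 is a protein of striated muscle, the muscle markers are given beside it. For *Acta1* (skeletal actin) the CCI libraries held 591, 340 and 329 counts and the sham libraries 7943, 334 and 1164, and the joined *Myh7* row had 12367 to 13422 counts in CCI and 8314 to 19622 in sham. *Tnni2* and *Myot* were at 0 counts in every CCI library, and the other 12 markers were not. *Csrp3* had 0.342 CPM in sham 1, the library with the highest muscle sum, and the part of muscle RNA in its difference between groups was not tested.

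**Figure D3:**
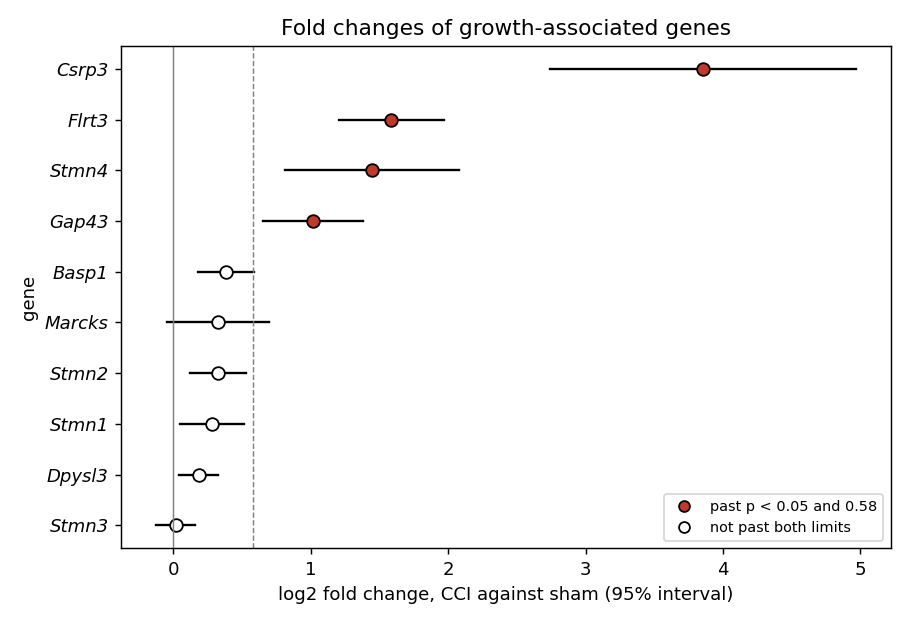
Log2 fold change of each gene, CCI against sham, with its 95% interval from the fit across all rows. Filled points are the 4 genes past both limits (p under 0.05 and 0.58, dashed line), and the intervals of *Marcks* and *Stmn3* include 0.

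Levels can be compared between genes only per length, as FPKM. In sham ganglia the order ran from *Stmn2*, at 615 FPKM and rank 41 of 26663 rows tested, through *Stmn3* at 149, *Dpysl3* at 127, *Gap43* at 61.9, *Stmn1* at 55.4, *Basp1* at 46.2, *Marcks* at 21.9, *Stmn4* at 7.40 and *Flrt3* at 4.58 to *Csrp3* at 0.231 FPKM. Only *Gap43* and *Stmn1* were neighbours whose sham ranges overlapped. The order of the mean levels in CCI was the same. The genes with the lowest levels, *Csrp3*, *Flrt3* and *Stmn4*, were those with the largest fold changes. As a difference in level the order was another one, with *Stmn2* higher by 165 FPKM in CCI and *Gap43* by 64.7 FPKM, against 13.05 for *Stmn4*, 9.33 for *Flrt3* and 3.30 for *Csrp3*.

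The CCI libraries differed among themselves. CCI 1 had the highest CCI value in 8 of 10 genes and CCI 3 the lowest in 7 of 10, and *Marcks* and *Stmn3* were the genes in which CCI 3 was highest. Over all rows tested CCI 1 was the highest CCI library in 34.9%, and over the rows called higher in 62.8%. The summed injury-state markers had the same order of libraries, with CCI 1 highest for each marker but *Gadd45a* (31.6, 45.1 and 44.8 CPM in CCI 1, 2 and 3), and *Atf3*, the transcription factor induced in axotomised neurons, had 9456, 5431 and 4094 counts in CCI 1, 2 and 3 against 555, 634 and 593 in sham 1, 2 and 3. The macrophage markers ran the same way, at 142, 124 and 99.8 CPM in CCI 1, 2 and 3. The part of either in the growth-associated differences was not tested. Leaving out CCI 1 gave the lowest log2 fold change of each of the 4 genes past the limits, at 0.86 for *Gap43*, 1.08 for *Stmn4*, 1.38 for *Flrt3* and 3.38 for *Csrp3*, and the 4 stayed past the limits without any 1 library. The count at p under 0.05 and any fold change was 6 without sham 1 and 7 without sham 3, against 8 with all libraries, and it was 9 in DESeq2.

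**Figure D4:**
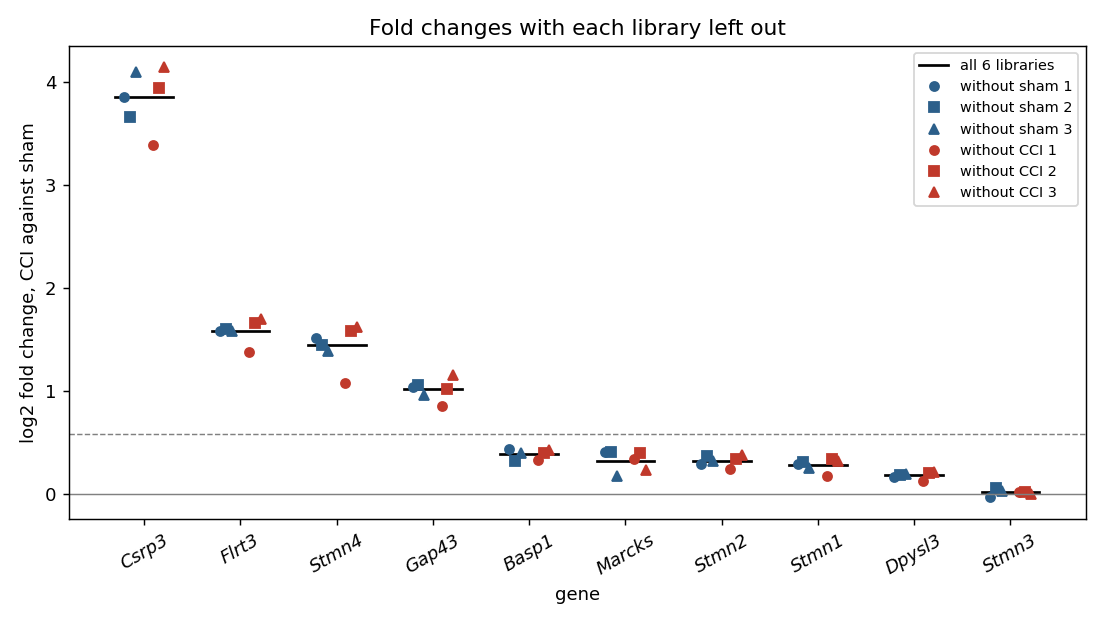
Log2 fold change of each gene with all 6 libraries (black bars) and with 1 library left out (points, red for a CCI library and blue for a sham library, with marker shapes for replicates). The points of *Csrp3*, *Flrt3*, *Stmn4* and *Gap43* stay above the dashed line at 0.58, and for these the circle for CCI 1 is the lowest.

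The annotation terms deposited with the table describe part of what the genes share. The term growth cone was carried by *Dpysl3*, *Gap43*, *Stmn2* and *Stmn4*, and by 117 of 13126 annotated rows (0.891%). Neuron projection development was carried by *Flrt3* and the 4 stathmins, and by 0.861% of annotated rows. Carriers of the growth cone term were found on both sides of the limits, since *Gap43* and *Stmn4* passed the limits and *Stmn2* and *Dpysl3* did not.

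To set these genes in their pathways, 85 relatives, partners and regulators in 7 lists were examined, of which 79 were tested. Of these, 3 were higher at the limits of the study, beside 2.57% of all rows, 0 were lower, beside 1.26%, and 0 passed the adjusted limit (edgeR, Benjamini-Hochberg adjustment). At p under 0.05 and any fold change, 13 were higher, beside 5.57% of all rows, and 11 were lower, beside 5.18%. The groups were apart with CCI above in 12 of 79, beside 8.63% of all rows, and the median log2 fold change was -0.01. The count past the limits was thus near that over all rows. The counts at any fold change, in both directions, and the count with groups apart were above their shares over all rows. The 3 genes were *Prkcb* (protein kinase C beta, which phosphorylates GAP-43 and MARCKS), *Tmod2* (a neuronal tropomodulin that caps actin filaments) and *Fscn1* (fascin, which bundles actin in filopodia).

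In CCI 1, 2 and 3, *Prkcb* had 8269, 19653 and 9203 counts, beside 6032, 6216 and 6381 in sham 1, 2 and 3. For *Tmod2* the CCI libraries had 22397, 54977 and 21237 counts and the sham libraries 17749, 13395 and 17416. Both were high above all in CCI 2, which is not the library in which the growth-associated genes were highest. *Prkcb* had a log2 fold change of 1.06 (SE 0.32, adjusted p 0.321), which was 0.58 without CCI 2, just under the unrounded limit, and *Tmod2* had 1.09 (SE 0.37, adjusted p 0.364), which was 0.52 without CCI 2. *Tmod2* also missed the p limit without sham 1 (p 0.0535) and without sham 2 (p 0.0698) in the edgeR fit across all rows. For *Fscn1* the CCI libraries had 3268, 2021 and 1976 counts and the sham libraries 1501, 1315 and 1645. Its log2 fold change was 0.77 (SE 0.20, adjusted p 0.257), and it was 0.51 without CCI 1.

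The close relatives of the 10 genes that are named here had small fold changes. *Marcksl1*, the smaller MARCKS-like protein, had a log2 fold change of 0.28 (SE 0.20), which was 0.079 without sham 2 and 0.47 without sham 3. *Flrt1* had -0.24 (SE 0.12) and *Flrt2* 0.18 (SE 0.13), beside 1.59 for *Flrt3*, and the *Flrt2* value was 0.073 without CCI 2 and 0.30 without CCI 1. *Fgfr1*, a receptor that FLRT proteins bind, had -0.15 (SE 0.06). *Csrp1* had 0.24 (SE 0.06), beside 3.85 for *Csrp3*. Of the collapsin response mediators, *Crmp1* had 0.34 (SE 0.11) with all CCI libraries above all sham libraries, and *Dpysl2*, the most abundant of them, had 0.02 (SE 0.05). No differences between relatives were tested.

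Abundant regulators also had small fold changes. *Map1b* (a microtubule-associated protein of growing axons) had a log2 fold change of -0.10 (SE 0.05), *Tmsb4x* (thymosin beta, which sequesters actin monomers) 0.22 (SE 0.06) and *Map2k4* (a kinase upstream of JNK) -0.25 (SE 0.05). The medians of the lists were -0.01 for the relatives and partners of GAP-43 and MARCKS, 0.01 for the collapsin response mediators, -0.06 for the relatives and partners of FLRT3, 0.04 for those of CSRP3, -0.0047 for the actin regulators, -0.05 for the microtubule regulators and -0.03 for the kinases.

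**Figure D5:**
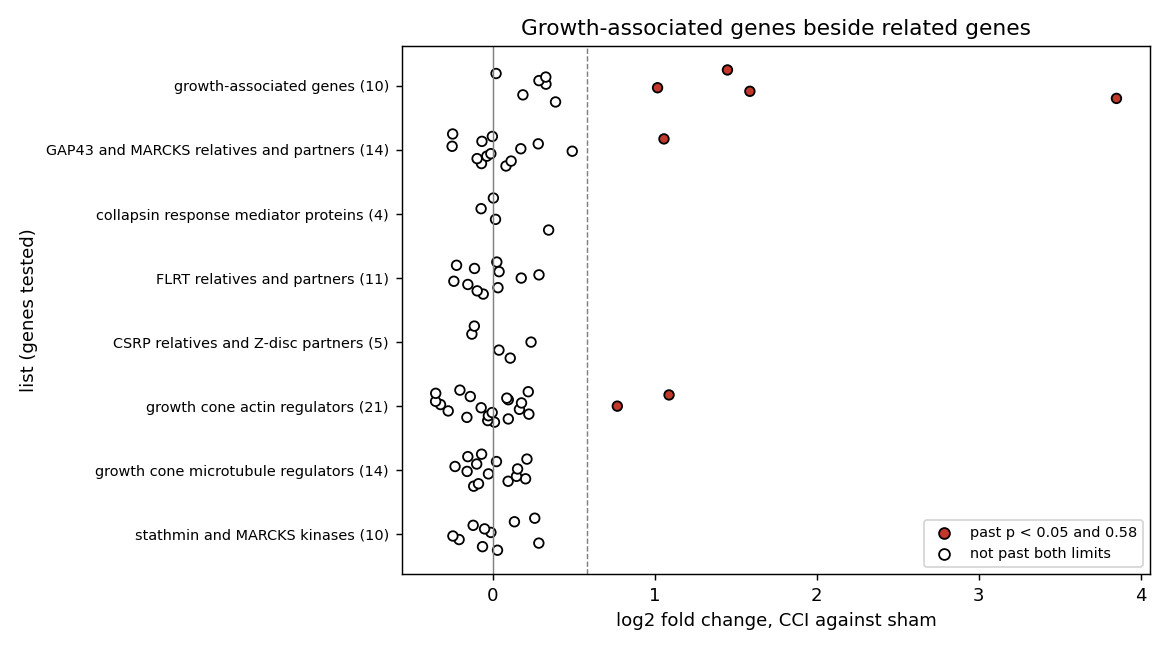
Log2 fold change, CCI against sham, of the 10 growth-associated genes (top) and of each tested gene in the 7 lists of related genes, with the number tested in parentheses. Filled points are past both limits (p under 0.05 and 0.58, dashed line), which are 4 of the 10 genes and 3 of the 79 related genes.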

How the data were processed

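Ribosomal-RNA-depleted total RNA of lumbar DRG from 3 CCI and 3 sham samples was sequenced as paired ends. Per the submitters' processing notes, HISAT2 2.0 and StringTie 1.3.0 were used, and the study's methods name edgeR and a rat genome V101. The deposited table gives, for each of 43350 assembled gene rows, raw counts per library, and the authors deposited FPKM values beside them, which are normalized to length and depth. The table holds no fold changes or p-values of the authors, and 0 columns of other samples. Whether counting used strand, and what a joined row counts, is not given in the sources used here. The sequences are from RefSeq on GRCr8, and the build of the table's coordinates is not named there, so the 2 were not mixed.

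The counts of 26663 rows (mean FPKM 0.5 or more) were scaled by TMM factors and tested with the quasi-likelihood test of edgeR 4.0.16 with a trended prior (R 4.3.3), and Benjamini-Hochberg adjustment was over all rows. CPM used the same factors. A row was called at p under 0.05 and an absolute log2 fold change of at least 0.58. The 95% intervals use the t distribution with the moderated degrees of freedom. The labels do not say that samples are separate rats (the methods do), so p-values measure the spread between these samples. The alternatives were limma 3.58.1 on log2(FPKM + 1) and log2(FPKM + 0.1), DESeq2 1.42.0, RLE scaling, other filters, protein-coding rows only, a prior without trend, a replicate block and leaving out each library. Same-numbered CCI and sham libraries had correlations of -0.0112, -0.0261 and -0.0745 in their deviations from the group means, which gave no sign of pairing. The labels give only replicate numbers, so whether the numbers pair samples is not known. The fits were tested on simulated data. No 2 libraries agreed within sampling noise. Other tools were the R package data.table, Python 3.11.15, pandas 2.3.3, numpy 2.4.6 and matplotlib 3.10.9.

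The 10 genes, the related lists and the marker lists were chosen with earlier results of these data known. All 10 genes were named, and of each related list those past the limits and up to 3 of the highest FPKM, of which 1 gene is not reported here. *Marcksl1*, *Flrt1* and *Flrt2* were added for kinship, and *Atf3* and the macrophage, muscle, large-neuron and other injury-state genes as markers, after their values were seen. Nociceptor, satellite glia, Schwann cell, fibroblast, endothelial and cell cycle marker lists had 0 genes past the limits. At 3 counts, the floor of detection was 0.0342 to 0.0398 CPM, and intervals cover counting error and the spread between libraries only.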

Additional observations from a re-analysis of the deposited data

How the results depend on the processing

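The counts of 4 genes higher and 0 lower at the limits of the study were the same in every alternative run. With RLE scaling and on FPKM as deposited, 9 of 10 genes had every CCI library above every sham library. The same count without any 1 library is no check, since leaving out a library cannot break such a separation. These counts of separation were chosen after seeing the data. The count of genes at an adjusted p under 0.05 varied most, and the cause was not tested. It was 1 (*Flrt3*) in edgeR's quasi-likelihood test, 0 with limma on log2(FPKM + 1), 0 with a prior without trend, 2 over protein-coding rows only (*Flrt3* and *Csrp3*) and 6 with DESeq2 (*Gap43*, *Basp1*, *Stmn2*, *Stmn4*, *Flrt3* and *Csrp3*). Over all rows the same count was 25 in edgeR and 751 in DESeq2. With a replicate block it was 0 for the 10 genes and 0 over all rows, the log2 fold change of *Tmod2* was 0.94 with p missing the limit, and no other call at the limits of the study changed among the 10 genes, the related genes named and *Atf3*. Leaving out 1 library gave 0 to 3 genes, namely 2 without CCI 1, 0 without CCI 2, 3 without CCI 3 and 0 without any 1 sham library. The log2 fold change reversed for *Stmn3* (-0.028) and for *Dpysl2* (-0.015), both without sham 1, and their ranges over left-out libraries were -0.028 to 0.057 and -0.015 to 0.036. The count at p under 0.05 and any fold change, 8 of 10, ranged from 6 (without sham 1) to 9 (DESeq2), also checked after seeing the data. *Csrp3* ranged from 1.81, on log2(FPKM + 1), to 4.14.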
